A study of Homo sapiens with 8 samples.

Results

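Metallothioneins are small intracellular proteins that hold zinc and copper, and they are described here with the zinc exporter SLC30A1 and the zinc-sensing transcription factor MTF1. The genes were chosen by name, and the choice was made with earlier results of these same libraries known, so their levels and their roseoflavin differences are given as a description and no test supports them. They are 10 genes of the 62649 in the table: the metallothionein genes MT1A, MT1E, MT1F, MT1G, MT1M, MT1X and MT2A, the metallothionein pseudogene MT1L, and SLC30A1 and MTF1. Of these 10, only SLC30A1 encodes an exporter.

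RNA was sequenced from AsPC-1 and PANC-1, established human pancreatic cancer cell lines that the labels give as wild type, after 3 days as spheroids in methylcellulose medium. Each line received vehicle, roseoflavin at 10 µM, trametinib at 1 nM, or the compounds together, for 24 h, with the vehicle as the control in each line. Roseoflavin is a bacterial analogue of riboflavin, and trametinib inhibits the MEK kinases. The 8 libraries hold 1 library for each line and treatment, so no group had a replicate, and a line and its library preparation cannot be told apart.

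Values are in TPM, an abundance per transcript length scaled to a total of 1000000 in every library. Sequencing depth cannot be read from them and is unknown, and no counting interval is given. The number of genes at 1 TPM or more was 15280 to 15580 in AsPC-1 and 17105 to 17201 in PANC-1. Of 5 epithelial markers, all 5 were higher in AsPC-1, and of 3 mesenchymal markers all 3 were higher in PANC-1; EPCAM was at 1224 to 1485 TPM in AsPC-1 against 14.5 to 16.8 in PANC-1, and VIM at 660 to 816 against 3132 to 3391 TPM. The leukocyte marker PTPRC and the endothelial marker PECAM1 reached at most 0.038 TPM in any of the libraries, while PDGFRB, a receptor of pericytes and fibroblasts, reached 0.892 TPM. COL1A1, a collagen of fibroblasts, was at 0.037 to 0.121 TPM in AsPC-1 and 98.9 to 107 TPM in PANC-1. Mitochondrially encoded transcripts made up 41.2% to 44.1% of the AsPC-1 libraries and 22.8% to 25.6% of the PANC-1 libraries, and in PANC-1 the share was lower in both roseoflavin libraries (23.7% and 22.8%) than in both others (25.6% and 24.8%). Because the total is common, this share moves the other values, and its part in the differences below was measured by rescaling without these transcripts.

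In the textbook account, free zinc in the cytosol binds MTF1, which moves to the nucleus and binds metal response elements, short promoter motifs of metallothionein genes and of SLC30A1. Metallothioneins then bind the excess zinc through clusters of cysteine thiolates, and SLC30A1, also called ZnT1, carries zinc out across the plasma membrane. Cadmium, copper, oxidants, hypoxia and glucocorticoids are also known to raise metallothionein transcripts. In the pancreas, acinar cells store and secrete zinc with their digestive enzymes, and beta cells pack it with insulin.

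The 8 metallothionein members lie together on chromosome 16 within chr16:56608199-56684196 (GRCh38, GENCODE release 29), a span of 75998 bases. Along the plus strand they are MT2A, MT1L, MT1E, MT1M, MT1A, MT1F, MT1G and MT1X, and of these MT1G alone is on the minus strand. SLC30A1 (chr1:211571568-211578742) and MTF1 (chr1:37809567-37859620) are on the minus strand of chromosome 1. The 7 coding metallothionein genes have reading frames of equal length, 186 bases, with 61 codons before the stop, 20 of which encode cysteine. The frames of MT2A, MT1E and MT1X, from the GENCODE transcripts and on the plus strand of the genome, are shown because MT2A and MT1E were the most abundant coding members in both lines and MT1X had the largest fitted difference between the lines in its response to roseoflavin; capitals mark the cysteine codons, and the first and last base are those of the start and stop codons.
MT2A: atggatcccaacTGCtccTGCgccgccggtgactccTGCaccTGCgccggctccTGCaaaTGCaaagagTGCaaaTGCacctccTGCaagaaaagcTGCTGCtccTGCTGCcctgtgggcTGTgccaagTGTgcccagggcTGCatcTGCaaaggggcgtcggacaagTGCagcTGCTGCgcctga
MT1E: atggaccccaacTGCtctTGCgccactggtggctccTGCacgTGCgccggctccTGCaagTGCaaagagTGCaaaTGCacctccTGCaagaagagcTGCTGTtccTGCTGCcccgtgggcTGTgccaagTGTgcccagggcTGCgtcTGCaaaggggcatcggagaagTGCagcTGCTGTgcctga
MT1X: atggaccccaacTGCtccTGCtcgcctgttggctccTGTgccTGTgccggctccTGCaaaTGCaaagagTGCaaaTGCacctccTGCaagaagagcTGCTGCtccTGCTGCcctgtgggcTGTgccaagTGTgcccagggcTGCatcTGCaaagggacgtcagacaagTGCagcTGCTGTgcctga
Over the 21 pairs of the 7 frames, identity ran from 88.7% (MT1F and MT1X) to 95.2% (MT1G and MT2A). MT1L has no annotated reading frame. Its longer GENCODE transcript holds, from base 88 to base 273, a stretch that aligns to the whole MT1E frame at 94.6% identity, and it is shown with its first in-frame stop codon in capitals.
MT1L: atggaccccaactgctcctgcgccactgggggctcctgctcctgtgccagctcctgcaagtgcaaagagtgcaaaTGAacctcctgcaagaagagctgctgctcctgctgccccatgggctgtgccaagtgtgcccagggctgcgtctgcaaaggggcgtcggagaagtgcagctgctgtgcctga
That stop, TGA, stands at codon 26, after 7 of the cysteine codons.

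This likeness bears on the values, since the treatment of reads that fit several genes is not given in the sources used here. The share of 50-base words in a gene's transcripts that also occur in transcripts of another gene, paralog or not, was 18.3% for MT1X, 16.5% for MT1G, 9.87% for MT1M, 7.10% for MT1E, 5.76% for MT1A, 4.42% for MT1L, 3.02% for MT2A and 1.22% for MT1F. For SLC30A1 it was 0%, and for MTF1 0.640%. At 100 bases the share was 0% for every member except MT1X, where 11.3% of words also occur in AC026461.1 (ENSG00000259827, chr16:56682470-56687807), a noncoding gene that overlaps MT1X on the same strand. AC026461.1 had 20.4, 17.2, 26.1 and 8.55 TPM in AsPC-1 (vehicle, roseoflavin, trametinib, both) and 77.2, 136, 87.0 and 148 TPM in PANC-1. That is 2.65 to 2.98 times the MT1X value in every library, and whether both rows count the same reads was not tested. The metallothionein values are therefore uncertain between paralogs, and that of MT1X also between it and AC026461.1.

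RefSeq promoters (GRCh38.p14, from 250 bases before the start site to 50 after it) matched 4 members, MT2A, MT1X, SLC30A1 and MTF1. They were searched on both strands for the core of the metal response element, written here as TGCACNC or TGCGCNC, where N is any base. MT2A held 8 matches, MT1X held 4, SLC30A1 held 2 and MTF1 held 0. Among all 35116 promoters in the RefSeq table, 29.6% held at least 1 match, 8.60% at least 2, 0.601% at least 4, and 0.0199%, or 7 promoters, at least 8. A match is a description of the letters and not a site of binding. The stretches below are shown because they carry matches, and whether matches bear on the levels of these genes was not tested. Capitals mark each match, and a match on the other strand reads as its reverse complement. The MT2A stretches are short because GENCODE counts this region as transcribed. Those of MT2A lie at chr16:56608426-56608455 and chr16:56608524-56608553 and that of MT1X at chr16:56682220-56682423, all on the plus strand. That of SLC30A1 lies at chr1:211579162-211579411 on the minus strand.
MT2A, first stretch: ccgggTGCGCCCggcccagTGCGCGCggcc
MT2A, second stretch: ggctttTGCACTCgtcccggctctttctag
MT1X: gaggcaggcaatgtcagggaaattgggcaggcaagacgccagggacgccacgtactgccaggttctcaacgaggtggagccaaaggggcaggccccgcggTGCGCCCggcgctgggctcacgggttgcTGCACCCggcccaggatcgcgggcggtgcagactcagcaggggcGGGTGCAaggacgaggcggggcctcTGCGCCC
SLC30A1: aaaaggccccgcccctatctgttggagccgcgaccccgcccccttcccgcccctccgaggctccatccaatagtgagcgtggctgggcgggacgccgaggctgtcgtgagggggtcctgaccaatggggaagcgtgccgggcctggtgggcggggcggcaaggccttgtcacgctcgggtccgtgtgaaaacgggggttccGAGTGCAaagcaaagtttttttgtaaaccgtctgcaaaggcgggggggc
The first MT2A stretch holds 2 matches, the second 1, the MT1X stretch all 4, and the SLC30A1 stretch 1, the other SLC30A1 match lying 24 to 30 bases after the start.

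**Figure D1:**
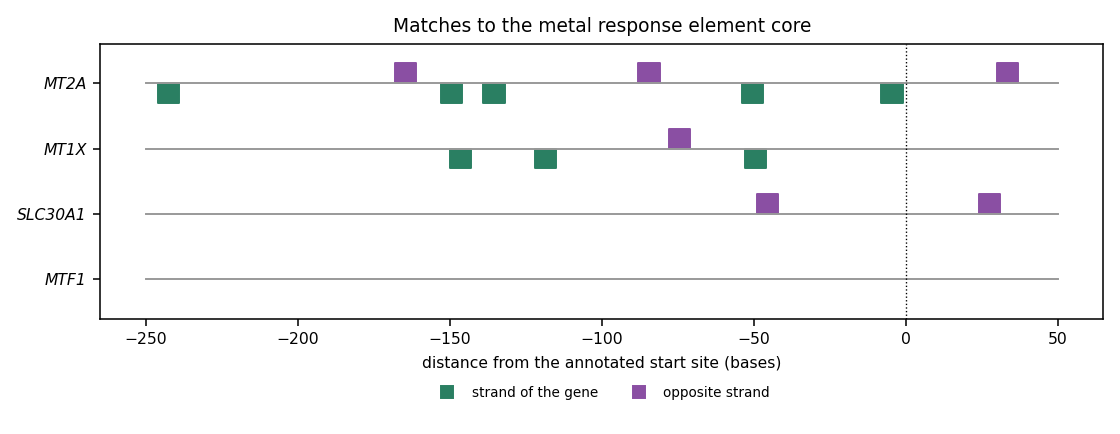
Matches to the metal response element core TGCACNC or TGCGCNC in the RefSeq promoters of 4 genes, by distance in bases from the annotated start site (dotted line); green boxes are on the strand of the gene and purple boxes on the other. MT2A carries 8 matches, MT1X 4, SLC30A1 2 and MTF1 0.

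In PANC-1 most of the metallothionein signal came from MT2A and MT1L, while in AsPC-1 MT1E and MT2A stood close together at a much lower level. The summed level of the 8 metallothionein members was 117, 82.1, 129 and 83.2 TPM in AsPC-1 with vehicle, roseoflavin, trametinib and both, and 1677, 1983, 1782 and 1983 TPM in PANC-1. MT1L made up 2.89% to 4.10% of the sum in AsPC-1 and 43.3% to 51.9% in PANC-1. Without the pseudogene the sum was 113, 79.8, 124 and 80.3 TPM in AsPC-1 and 845, 1080, 857 and 1124 TPM in PANC-1, and the vehicle library of PANC-1 was 7.51-fold above that of AsPC-1. The corresponding ratio with MT1L was 14.3. Of the sum without MT1L, MT2A held 34.3% to 37.9% in AsPC-1 and 73.5% to 78.9% in PANC-1, and with vehicle MT1E held 44.1% in AsPC-1 and 12.3% in PANC-1. In these bulk samples, fewer cells that express a gene and less of its RNA per cell cannot be told apart.

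**Figure D2:**
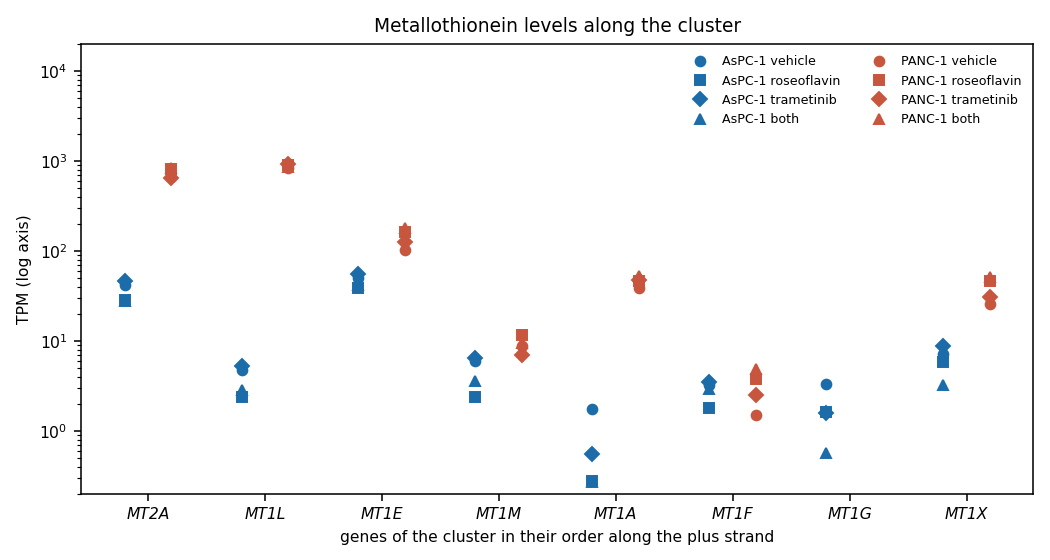
TPM on a log axis for the 8 metallothionein members in their order along the plus strand of chromosome 16, with 1 point for each library (blue AsPC-1, red PANC-1; the shape gives the treatment). MT2A and MT1L stand at 645 TPM or more in every PANC-1 library, and MT1G, listed at 0 in PANC-1, has blue points alone.

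Both lines were compared over all treatments with limma on log2(TPM + 1), with roseoflavin and trametinib as further terms, so that the spread comes from what those terms leave and not from replicates. Of the 10 genes 8 were called higher in PANC-1, 1 (MT1G) was called lower and MT1F did not pass a Benjamini-Hochberg adjusted p of 0.05. Of all 19122 genes tested 83.8% were called in this comparison, so the count is not a result about these genes. The median of all genes was itself 0.55 higher in PANC-1, and it was 0.22 after rescaling without mitochondrial transcripts and 0.04 after quantile normalization. The fitted differences (PANC-1 minus AsPC-1) were 7.56 for MT1L, 4.86 for MT1A, 4.34 for MT2A, 2.45 for MT1X, 1.57 for MT1E, 1.53 for MTF1, 0.93 for MT1M, 0.76 for SLC30A1, 0.053 for MT1F and -1.38 for MT1G. MT1M was no longer called after rescaling (0.63, limma adjusted p 0.0864) or quantile normalization (0.37, adjusted p 0.240), nor without any 1 of 3 libraries (adjusted p 0.0524 to 0.0603). MT1F turned negative after both scalings (-0.26 and -0.51). The difference of SLC30A1 was 0.38 after rescaling and 0.31 after quantile normalization, and that of MTF1 was 0.98 after quantile normalization; both stayed called. MT1G, listed at 0 in PANC-1, was at -4.00 with a pseudocount of 0.1 in place of 1, so the size of its difference depends on the pseudocount.

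The direction of the roseoflavin difference was opposite in the lines for most metallothioneins: lower with roseoflavin in AsPC-1, higher in PANC-1. A gene was counted as separated in a line when both libraries with roseoflavin lay on the same side of both libraries without it. In AsPC-1, 7 of the 10 genes were separated downward (MT1A, MT1E, MT1F, MT1L, MT1M, MT1X and MT2A), where 21.6% of all 19122 genes were, and 1 upward (MTF1), where 10.6% were. Among the 7, MT1A reached 1 TPM in AsPC-1 with vehicle only. In PANC-1, 6 of the 10 were separated upward (MT1E, MT1F, MT1M, MT1X, MT2A and SLC30A1), where 22.9% of all genes were, and 0 downward, where 22.7% were. In 5 of the 10, MT1E, MT1F, MT1M, MT1X and MT2A, both held, as they did for 5.31% of all genes. Because the genes were chosen with these values known, the counts describe the genes and are read no further.

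None of these differences passed a test. With limma, 0 of the 10 genes passed the adjusted threshold for roseoflavin in AsPC-1 (0% of all genes did), 0 in PANC-1 (0% of all) and 0 for the difference between the lines (0.0261% of all, which is 5 genes). At an unadjusted p under 0.05 there were 7 of the 10 members in AsPC-1 (1831 of all 19122 genes) and 5 in PANC-1 (1811). For the difference between lines there were 7 (1907). The genes were chosen with these values known and most are paralogs that lie together, so these counts are a description. Fitted over both lines at once, which averages the opposite directions, the members had a median of -0.067 and 0 passed or had an unadjusted p under 0.05, against 1358 genes with such a p in all. The median fitted difference of the 10 genes was -0.66 in AsPC-1 (-0.028 over all genes) and 0.26 in PANC-1 (0 over all genes).

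MT2A (ENSG00000125148, chr16:56608199-56609497), the member of the MT2 group, showed the division between the lines at high level. In AsPC-1 it was at 41.5 TPM with vehicle, 28.8 with roseoflavin, 46.8 with trametinib and 27.5 with both. In PANC-1 it was at 666, 809, 645 and 826 TPM in the same order. In each line the roseoflavin pair and the other pair did not overlap, with the roseoflavin pair lower in AsPC-1 and higher in PANC-1. Roseoflavin over vehicle was a ratio of 0.693 in AsPC-1 against 1.21 in PANC-1, and both compounds over trametinib gave 0.588 and 1.28. The fitted difference was -0.63 (SE 0.0674) in AsPC-1 against 0.32 in PANC-1 with the same SE.

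MT1E (ENSG00000169715, chr16:56625475-56627112), a metallothionein of the MT1 group, was the most abundant member in AsPC-1. It was at 49.6, 39.1, 55.9 and 42.2 TPM there (vehicle, roseoflavin, trametinib, both) and at 104, 162, 125 and 180 TPM in PANC-1. The roseoflavin libraries were again the lower pair in AsPC-1 and the higher pair in PANC-1. The ratio to the matched library without roseoflavin was 0.787 (no trametinib) and 0.756 (with trametinib) in AsPC-1 against 1.56 and 1.44 in PANC-1. The fitted differences were -0.37 (SE 0.0517) and 0.58, and the difference between the lines, 0.95 (SE 0.0731), had the smallest adjusted p among the 10 genes (0.123).

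MT1X (ENSG00000187193, chr16:56682424-56684196) shares part of its transcripts with AC026461.1, as given above. It was at 7.15, 5.88, 8.78 and 3.22 TPM in AsPC-1 and at 26.0, 46.5, 30.4 and 50.8 TPM in PANC-1. In AsPC-1 the ratio was 0.823 without trametinib and 0.367 with it, so most of the fitted difference of -0.73 (SE 0.251) came from the library with both compounds. It was -0.27 without that library and -1.18 without the library with roseoflavin alone. In PANC-1 the ratios were 1.79 and 1.67. Its fitted difference between the lines was 1.50 (SE 0.355), the largest of the 10.

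The less abundant MT1F (ENSG00000198417, chr16:56657694-56660698) and MT1M (ENSG00000205364, chr16:56632233-56633986) had the same directions. MT1F was at 3.25, 1.79, 3.54 and 2.95 TPM in AsPC-1 and at 1.50, 3.80, 2.48 and 4.88 TPM in PANC-1. With vehicle it was higher in AsPC-1, and with roseoflavin it was higher in PANC-1. MT1M was at 5.99, 2.38, 6.41 and 3.56 TPM in AsPC-1 and at 8.71, 11.8, 7.02 and 9.56 TPM in PANC-1. Its ratios were 0.397 and 0.556 in AsPC-1 against 1.35 and 1.36 in PANC-1.

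MT1A (ENSG00000205362, chr16:56638666-56640087) and MT1G (ENSG00000125144, chr16:56666731-56668065) were each expressed mainly in 1 of the lines. MT1A was at 1.75, 0.279, 0.551 and 0.270 TPM in AsPC-1 and at 38.5, 46.8, 47.5 and 52.7 TPM in PANC-1. In AsPC-1 only the vehicle library reached 1 TPM. MT1A therefore met the filter on low values (1 TPM in 2 libraries or more) only through PANC-1. Its separation in AsPC-1 rests on 0.279 TPM with roseoflavin against 0.551 TPM with trametinib. In PANC-1 the MT1A value with trametinib alone was above that with roseoflavin alone, so the roseoflavin pair was not separated there. MT1G was at 3.29, 1.62, 1.60 and 0.570 TPM in AsPC-1 and was listed at 0 in all 4 PANC-1 libraries, so it met the filter on low values only through AsPC-1. In AsPC-1 its value with roseoflavin alone lay above that with trametinib alone, and the library with both compounds was the lowest.

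The pseudogene MT1L (ENSG00000260549, chr16:56617476-56618818) had ratios on both sides of 1 in PANC-1. It was at 4.78, 2.38, 5.28 and 2.88 TPM in AsPC-1, with the roseoflavin pair lower, and its ratios were 0.497 and 0.545. In PANC-1 it was at 833, 904, 925 and 859 TPM, with ratios of 1.09 without trametinib and 0.929 with it. The fitted difference was -0.74 (SE 0.0753) in AsPC-1 against 0.0056 in PANC-1. MT1L was at 0.0830 to 0.115 times the MT2A value in AsPC-1 and at 1.04 to 1.43 times in PANC-1, and at 0.0610 to 0.0960 times the MT1E value in AsPC-1 against 4.78 to 8.03 times in PANC-1.

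**Figure D3:**
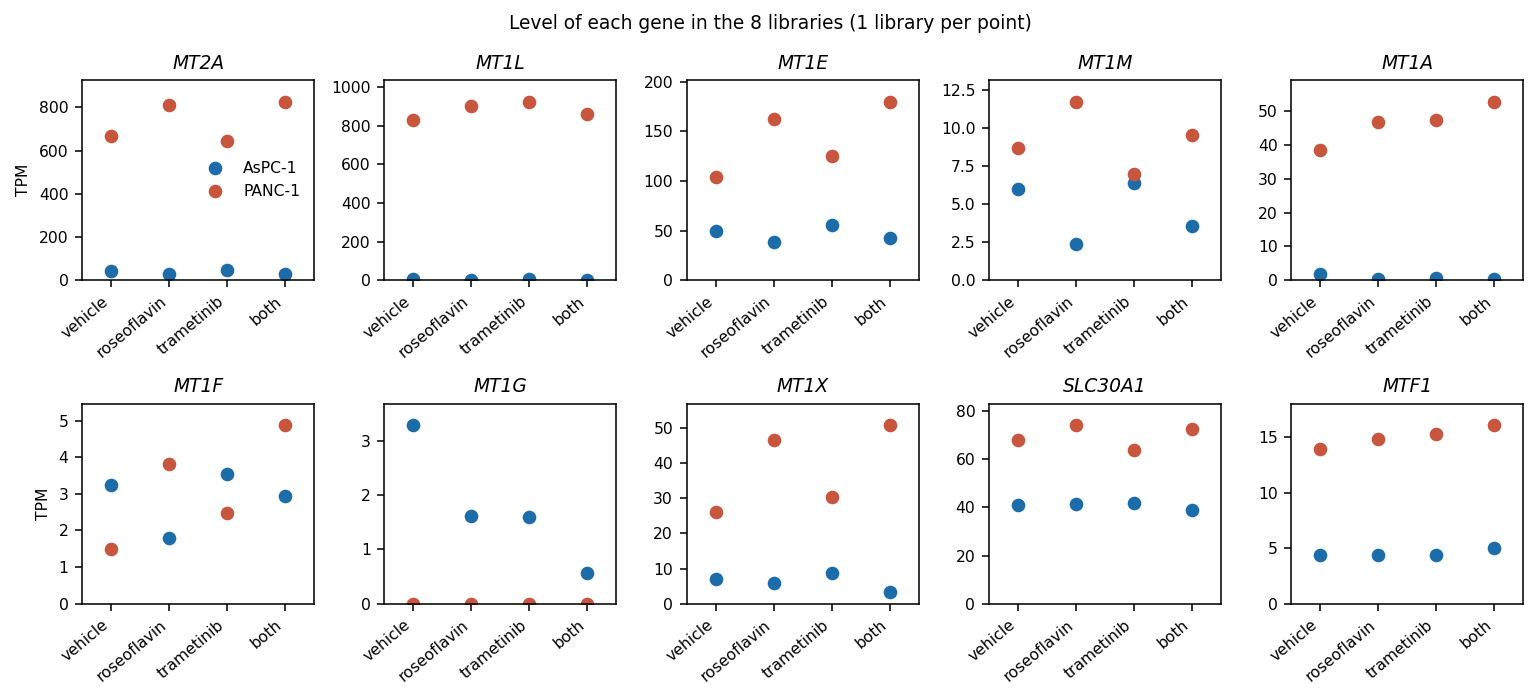
TPM of each of the 10 genes by treatment, with 1 point for each library and no replicates (blue AsPC-1, red PANC-1; each panel has its own linear axis from 0). MT2A, MT1E, MT1F, MT1M and MT1X are higher in both PANC-1 roseoflavin libraries than in both others, and lower in both AsPC-1 roseoflavin libraries.

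The exporter SLC30A1 (ENSG00000170385) was separated in PANC-1 and not in AsPC-1. It was at 40.8, 41.2, 41.8 and 38.8 TPM in AsPC-1, where the roseoflavin and other libraries overlapped, and at 67.9, 74.1, 63.6 and 72.6 TPM in PANC-1, where they did not. The ratios to the matched library were 1.01 and 0.927 in AsPC-1 against 1.09 and 1.14 in PANC-1. Its fitted difference was -0.047 (SE 0.0509) in AsPC-1 against 0.16 in PANC-1.

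The factor MTF1 (ENSG00000188786) was at 4.38, 4.41, 4.37 and 5.03 TPM in AsPC-1 and at 13.9, 14.8, 15.3 and 16.1 TPM in PANC-1. In AsPC-1 only the library with both compounds stood clear of the other 3, which lay between 4.37 and 4.41 TPM. The fitted differences, 0.087 (SE 0.0647) and 0.077, had the same sign in both lines, and the difference between the lines was -0.010 (SE 0.0915). A pseudogene on the opposite strand inside MTF1, AL929472.4, was listed at 0 in every library.

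**Figure D4:**
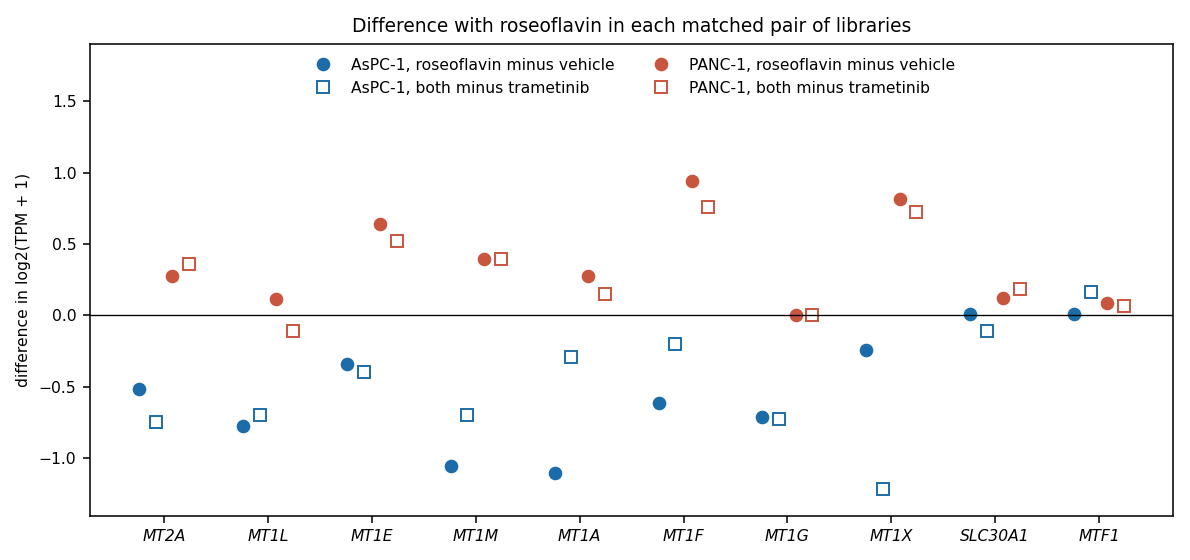
Difference in log2(TPM + 1) between each library with roseoflavin and its match without it, for the 10 genes in both lines (filled circles: roseoflavin minus vehicle; open squares: both compounds minus trametinib). For MT2A, MT1E, MT1M, MT1A, MT1F and MT1X all blue points lie below 0 and all red points above it.

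Rescaling without mitochondrial transcripts left 7, 6 and 5 of the 10 genes separated downward in AsPC-1, upward in PANC-1 and both, where 18.5%, 16.5% and 3.29% of all genes were. After quantile normalization the counts were 7, 7 and 6, with MT1A added in PANC-1, where 13.9%, 22.8% and 3.58% of all genes were. The sum without MT1L was 0.709 times (no trametinib) and 0.650 times (with trametinib) its match in AsPC-1, against 1.28 and 1.31 times in PANC-1.

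**Figure D5:**
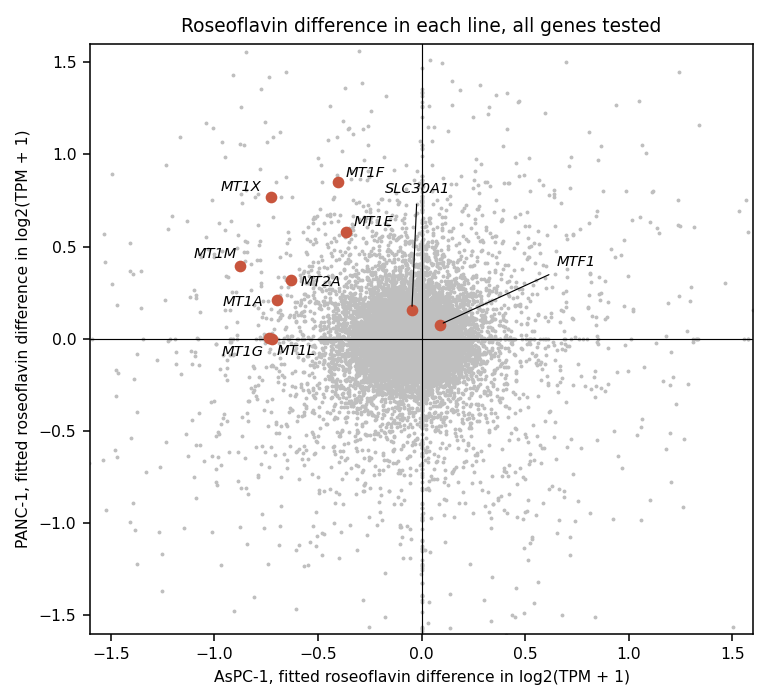
Fitted roseoflavin difference in log2(TPM + 1) in AsPC-1 (horizontal) and PANC-1 (vertical), with the 10 genes in red and the other genes tested in grey; 82 of the 19122 genes lie outside the axes, which end at 1.6. MT1E, MT1F, MT1M, MT1X, MT2A and MT1A lie at the upper left, SLC30A1 and MTF1 near the middle, and MT1G and MT1L on the horizontal line.

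For trametinib, few of the 10 genes had separated pairs of libraries. In AsPC-1, 0 of the 10 genes were separated upward by trametinib (24% of all genes were) and 1, MT1G, downward (13.3% were). In PANC-1, 2 were separated upward (MT1A and MTF1; 16.1% of all genes) and 0 downward (11.6%). With limma, 0 of the 10 passed in AsPC-1 (0% of all genes) and 0 in PANC-1 (0.0105% of all), with 1 and 0 members at an unadjusted p under 0.05 against 2115 and 733 genes in all. The fitted trametinib difference of MT1G in AsPC-1 was -0.73 (SE 0.251, limma adjusted p 0.421). MT2A had -0.0084 in PANC-1 and 0.054 in AsPC-1, both with an SE of 0.302. These models give roseoflavin the same effect in both lines, which widens the SE of genes whose roseoflavin differences had opposite signs. With the compounds together the value against vehicle was 0.663-fold in AsPC-1 and 1.24-fold in PANC-1 for MT2A, and 0.852-fold and 1.73-fold for MT1E.

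Of the other metallothionein genes and pseudogenes, 13 symbols on 14 rows, 1 passed the filter on low values. This was the pseudogene MT1DP, at 0.659, 0, 0.727 and 0.714 TPM in AsPC-1 and 11.9, 7.59, 8.61 and 6.91 TPM in PANC-1. In PANC-1 it was lower in both roseoflavin libraries than in both others, while MT1E, MT1F, MT1M, MT1X and MT2A were higher in them. MT3, the brain form, reached 0.088 TPM in 1 library and MT4, the form of stratified epithelium, was listed at 0 in all 8.

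The other genes of the SLC30 and SLC39 families, named for zinc transport though not every member need carry zinc, had roseoflavin medians near 0 in both lines. Of 9 other exporters of the SLC30 family, 6 passed the filter and 0 passed the test for roseoflavin in either line, with a median difference of -0.018 in AsPC-1 against -0.020 in PANC-1. SLC30A5, which loads zinc into the secretory pathway and was the most abundant in both lines, was at 23.2, 25.2, 25.7 and 28.3 TPM in AsPC-1 and 46.2, 47.0, 46.8 and 44.5 TPM in PANC-1. SLC30A6, its partner in that pathway, was the 1 of the 6 exporters separated downward in AsPC-1 and upward in PANC-1. Of all genes 5.31% were separated in that way. The fitted differences of SLC30A6 were -0.060 and 0.068. Those of SLC30A9 had the same signs (-0.011 and 0.063), but its pairs were not separated in AsPC-1. Between the lines, SLC30A4, SLC30A5, SLC30A6 and SLC30A9 were called higher in PANC-1 and SLC30A7 and SLC30A10 lower. SLC30A4 met the filter on low values only through PANC-1, and SLC30A10 only through AsPC-1. In the lists below, SLC39A5 and SLC40A1 met it only through AsPC-1, and ATP7B, SLC31A2, HSPA6 and KLF9 only through PANC-1. As 83.8% of all genes were called, the calls in this list and the lists below are not a result about their genes. The median of all genes was 0.55 higher in PANC-1, above the difference of some genes called higher, such as the importer SLC39A1 (0.25). For the listed genes this comparison under both scalings is not given here.

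Of 14 importers of the SLC39 family, 11 passed the filter and 0 passed the test for roseoflavin, with medians of -0.018 and 0.040. SLC39A1, a plasma membrane importer, was the most abundant in AsPC-1 at 117 to 128 TPM, and SLC39A7, which releases zinc from the endoplasmic reticulum, in PANC-1 at 145 to 154 TPM. SLC39A10, an importer that MTF1 is known to repress, was separated downward in both lines, at 19.0, 16.5, 20.0 and 17.8 TPM in AsPC-1 and 30.4, 25.1, 29.5 and 27.0 TPM in PANC-1. It was the 1 importer of which that held. Taken singly, AsPC-1 had 21.6% of all genes separated downward, against 22.7% for PANC-1. The joint share was not computed, and whether MTF1 acted on SLC39A10 was not tested. Between the lines 8 importers were called higher in PANC-1 and 3 lower, where 83.8% of all genes were called. The 8 were SLC39A1, SLC39A3, SLC39A6, SLC39A7, SLC39A9, SLC39A10, SLC39A11 and SLC39A13, and the 3 were SLC39A4, SLC39A5 and SLC39A14.

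Of 5 other genes tied to MTF1 (GCLC, PGF, SELENOH, SLC39A10 and SLC40A1), 0 passed the test for roseoflavin, with medians of 0.048 in AsPC-1 against 0.049 in PANC-1. GCLC, a subunit of the enzyme that starts glutathione synthesis, was at 20.6, 22.6, 21.9 and 23.0 TPM in AsPC-1 and 18.0, 26.9, 17.1 and 29.8 TPM in PANC-1, higher with roseoflavin in both lines. Taken singly, AsPC-1 had 10.6% of all genes separated upward, against 22.9% for PANC-1, and the joint share was not computed. SLC40A1, the iron exporter ferroportin, was at 54.5 to 70.0 TPM in AsPC-1 and at 0.123 TPM or less in PANC-1. SELENOH, a selenoprotein, was the most abundant of the 5 in PANC-1 at 68.7 to 73.8 TPM. Between the lines PGF, SELENOH and SLC39A10 were called higher in PANC-1 and SLC40A1 lower, where 83.8% of all genes were called.

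Copper is the other metal that metallothioneins hold. Of 11 copper-handling genes all 11 passed the filter and 0 passed the test for roseoflavin, with medians of 0.011 and -0.015. Under the separation rule 0 of the 11 were lower in AsPC-1 and higher in PANC-1, where 5.31% of all genes were. SOD1, the copper and zinc superoxide dismutase, was at 239 to 265 TPM in AsPC-1 and 232 to 250 TPM in PANC-1. SLC31A1, the copper importer, was at 17.0, 19.7, 17.0 and 21.1 TPM in PANC-1. Between the lines 9 were called higher in PANC-1 and 0 lower, where 83.8% of all genes were called. The 9 were ATOX1, ATP7A, ATP7B, CCS, COMMD1, COX17, SCO1, SLC31A1 and SLC31A2.

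Among 8 heat shock genes that metal stress is known to induce, 7 had a negative roseoflavin difference in each line, and the medians were -0.097 in AsPC-1 against -0.091 in PANC-1 with 0 past the test. HSPA8, a constitutive HSP70 chaperone and the most abundant in PANC-1, was at 512, 476, 516 and 479 TPM in AsPC-1 and 895, 859, 919 and 841 TPM in PANC-1, lower with roseoflavin in both lines. HMOX1, heme oxygenase, was the 1 of the 8 separated upward in PANC-1 (22.9% of all genes were), with a fitted difference of 1.32. It was not separated in AsPC-1. Downward, 5 of the 8 were separated in PANC-1 (DNAJB1, HSPA1A, HSPA8, HSPB1 and HSPH1), where 22.7% of all genes were. In AsPC-1 DNAJB1, HSPA8 and HSPH1 were, as were 21.6% of all genes. The share of all genes separated downward in both lines was not computed. HSPB1 was the most abundant in AsPC-1 at 468 to 598 TPM. It was the 1 called lower in PANC-1 while the other 7 were called higher, where 83.8% of all genes were called.

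Of 8 glucocorticoid-responsive genes 7 passed the filter and 0 passed the test for roseoflavin, with medians of -0.0047 and 0.025. DUSP1, a MAPK phosphatase and the most abundant in PANC-1, was the 1 of the 7 separated downward in AsPC-1 and upward in PANC-1. Of all genes 5.31% were separated in that way. DUSP1 was at 17.1, 11.9, 15.6 and 12.3 TPM in AsPC-1 and 73.3, 81.4, 75.6 and 78.9 TPM in PANC-1. TSC22D3, a transcript raised by glucocorticoids, was at 7.89, 6.77, 9.97 and 9.29 TPM in AsPC-1, where the pairs overlapped, and 11.7, 18.3, 11.1 and 19.4 TPM in PANC-1, where both roseoflavin libraries were higher. Its fitted differences were -0.14 and 0.67. FKBP5, a chaperone partner of the glucocorticoid receptor, was the most abundant in AsPC-1 at 13.2 to 15.0 TPM. It was called lower in PANC-1, and DUSP1, KLF9, NR3C1, PER1, SGK1 and TSC22D3 were called higher, where 83.8% of all genes were called.

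The genes whose pattern was most like that of MT2A, MT1X and SLC30A1 were found by Pearson's r over the 8 libraries on log2(TPM + 1), centred within each line, among 8629 named genes whose mean was 10 TPM or more. The points share the same 8 libraries and common total, and the highest of so many coefficients is high by selection, so r is a description. For MT2A these were PNMA2 (r 0.99), TAF1D (0.99), P4HA1 (0.99), KDM3A (0.99) and CHRNB1 (0.98). P4HA1, a collagen prolyl hydroxylase, was at 82.0, 62.9, 98.7 and 58.1 TPM in AsPC-1 and 214, 276, 210 and 273 TPM in PANC-1. For MT1X they were YEATS2, PFKFB3, TMEM102, CLDND1 and MT-RNR1 (0.96 to 0.97), the last being a mitochondrial ribosomal RNA. For SLC30A1 they included INSIG2, CCNB1IP1, PSAT1 and MIR21 (0.94 to 0.97), and INSIG2, a regulator of sterol synthesis, was at 38.1, 36.1, 39.5 and 31.7 TPM in AsPC-1 and 19.1, 25.7, 17.6 and 24.9 TPM in PANC-1. No gene was named under more than 1 of the 3.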

How the data were processed

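RNA was measured in 8 libraries, 1 for each of 4 treatments in each of 2 cell lines. Libraries were made with a stranded kit for polyadenylated RNA, per the labels' protocols. The authors deposited 1 table of TPM per gene; per the submitters' processing notes STAR 2.7.3a, HTSeq 2.0.2 and hg38 were used. The annotation and the handling of reads shared between genes are not given in the sources used here. The table held 62649 genes, 41719 of them named; 985926 blank rows were left out. Each library sums to 1000000 TPM, so depth is unknown.

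The members and gene lists were chosen with earlier results of these data known. Values were analysed as log2(TPM + 1), which understates the change of low genes, for the 19122 genes that reached 1 TPM in 2 libraries or more. Linear models were fitted to all of them with limma 3.58.1 (eBayes with a trend; R 4.3.3), with terms for line, roseoflavin and trametinib, plus line by roseoflavin or line by trametinib for effects per line, with a Benjamini-Hochberg adjusted p of 0.05 as the threshold. A total of 9 comparisons was fitted. With 1 library per group, standard errors come from what these terms leave, not from replicates, and a p-value measures no spread between cultures. The models were also run on simulated data, with larger changes than the roseoflavin differences of the 10 genes. Those changes were in genes above 10 TPM, so that run gives no power or error rate for the 10 genes. Named genes were all members, listed genes past the threshold, the gene of highest mean TPM per list and line, and the 5 nearest in pattern to MT2A, MT1X and SLC30A1 (1 of them is not reported here); other listed genes were named after their values were seen. Coordinates and reading frames are from GENCODE 29, matched by identifier, and promoters from RefSeq. Reading frames were aligned with Biopython 1.88. Alternatives were a pseudocount of 0.1, no filter, a mean of 10 TPM or more, quantile normalization, rescaling without mitochondrial genes and leaving out each library; the separation counts under both scalings and the line difference of each gene under the alternatives were chosen after seeing the data.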

Additional observations from a re-analysis of the deposited data

Results flagged for a closer look

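Some genes were marked because every matched pair of libraries moved one way in AsPC-1 and the opposite way in PANC-1. The share of all genes that meet this rule was not computed, so how many were marked is a description. Values are the fitted difference in log2(TPM + 1) of PANC-1 minus that of AsPC-1. For roseoflavin it was 1.50 for MT1X (limma adjusted p 0.356), 1.27 for MT1M (0.330), 1.25 for MT1F (0.219), 0.95 for MT1E (0.123), 0.95 for MT2A (0.159) and 0.91 for MT1A (0.534). For trametinib it was 0.65 for MT1A (0.815), lower in AsPC-1 and higher in PANC-1, and -0.53 for MT1M (0.888), higher in AsPC-1 and lower in PANC-1. None of the 8 passed the adjusted threshold. MT1A was at 1.75 TPM or less in every AsPC-1 library, and its roseoflavin value was 0.42 without AsPC-1 vehicle, 1.40 without AsPC-1 trametinib and 1.77 with a pseudocount of 0.1. The matched pairs within a line share no library.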

How the results depend on the processing

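No paired analysis was possible because each group has 1 library and the labels carry no replicate numbers. Counts over all genes moved by more than 1.5 times as follows, and the cause was not tested except that a stricter filter tests fewer genes. Among genes whose mean was 10 TPM or more, the line comparison gave 8388 calls instead of 16027, roseoflavin in PANC-1 gave 22 instead of 0 and trametinib in PANC-1 gave 0 instead of 2. With a pseudocount of 0.1 there were 1 for roseoflavin in AsPC-1, 2 in PANC-1 and 8 for its line difference (5 in the main analysis), and 8 for trametinib in PANC-1 and 4 for its line difference. With no filter these were 10, 2 and 0, then 33 and 2, with 11 for trametinib in AsPC-1. Quantile normalization gave 0 for the roseoflavin line difference and 1 for trametinib in PANC-1. Rescaling gave 0 for the former and 2 for the trametinib line difference. Leaving out any library gave 0 to 0 for the roseoflavin line difference and for trametinib in PANC-1. The share of higher calls in PANC-1 against AsPC-1 was 74.4%, and 52.6% and 60.9% under quantile normalization and rescaling. Values of single genes among genes whose mean was 10 TPM or more are not given here. Of 480 single-gene values under the other alternatives, 461 kept their side of the threshold with no change of sign from the main value. Among them MT1G with roseoflavin in PANC-1, 0 in the main analysis, was -0.24 or 0.24 without 1 of the PANC-1 libraries. A further 5 (all the MT1M line difference) lost the call and 14 changed sign, each uncalled. For the MT1F line difference these were -0.51 (quantile), -0.26 (rescaled) and -0.14, -0.12, -0.092 and -0.064 without a roseoflavin or combination library (0.27 at most without any library). SLC30A1 with roseoflavin in AsPC-1 ran from -0.099 to 0.0054, the latter without the trametinib library. In PANC-1, MT1A with roseoflavin ran from -0.047, without the vehicle library, to 0.47, and MT1L was -0.031 rescaled, -0.029 without the vehicle and -0.11 without the roseoflavin library, with 0.12 the highest. The MTF1 line difference with roseoflavin was 0.057, 0.028 and 0.0089 without AsPC-1 trametinib, AsPC-1 with both and PANC-1 trametinib, and -0.077 at the lowest. Depth is unknown, so values of a few TPM or less have no stated precision.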
